A study of Mus musculus with 19 samples.

Results

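The 8 genes described here, Rtl3, Syt10, Mkx, Dgkh, Ccbe1, Iqgap2, Jph1 and Arhgap20, are genes of mouse hippocampus picked because their response to dietary ibuprofen appeared to run in opposite directions in APP-PS1 and wild-type mice. They were named in advance by symbol, out of 19938 genes measured on the arrays, with the ibuprofen differences of these same arrays in view. Each was read from the probe set that carries its symbol alone, and all 8 were found. Jph1 had 2 such probe sets, of which the brighter was used. The genes were chosen by measured values of these arrays: because the ibuprofen differences in each genotype and the interaction (the ibuprofen difference in APP-PS1 mice minus that in wild-type mice) chose the genes, those values are given below as a description and carry no test.

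The study measured total RNA from hippocampus of 6-month-old C57BL/6J mice on Affymetrix whole-transcript arrays. The APP-PS1 mice carried APPSwe-PS1deltaE9, a mutant amyloid precursor protein transgene joined with a presenilin 1 gene lacking exon 9, which gives amyloid plaques in the brain, and the wild-type mice were their littermates. Ibuprofen, an inhibitor of the cyclooxygenases that make prostaglandins, was given in chow at 375 ppm from 3 months of age until 6 months, and control mice ate the same chow without it. There were 4 arrays of wild-type mice on control chow, 5 of wild-type mice on ibuprofen, 5 of APP-PS1 mice on control chow and 5 of APP-PS1 mice on ibuprofen. The promoter that drives the transgenes and the sex of the mice are not given in the sources used here. The labels number the arrays of a group as replicates and do not state that each came from a different animal, so p-values measure the spread between these arrays.

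The arrays had medians between 8.06 and 8.14 on the log2 scale. As a check of the genotype labels, App, which encodes amyloid precursor protein, was higher in APP-PS1 mice by 0.37 ± 0.03 (log2 difference ± SE, adjusted p = 1e-08 by limma), with group means of 13.20 and 13.25 in wild-type and 13.60 and 13.59 in APP-PS1 mice. The median correlation of an array with the others lay between 0.9739 and 0.9958. The 3 arrays that correlated least were wild-type ibuprofen replicate 5, wild-type ibuprofen replicate 1 and APP-PS1 control replicate 1.

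The granule cells of the dentate gyrus are the first relay of the hippocampus: they receive input from the entorhinal cortex and send mossy fibres to the pyramidal cells of CA3, which in turn project to CA1. Each of these cell classes keeps its own set of expressed genes, with the transcription factor Prox1 as the classical mark of granule cells. The 8 genes share no common pathway. Rtl3 derives from the Gag gene of an ancient retrotransposon, Mkx (Mohawk) encodes a homeodomain transcription factor known from tendon, and Ccbe1 encodes a secreted protein that helps the protease Adamts3 to activate the growth factor Vegfc. Syt10 encodes a synaptotagmin, a calcium sensor of vesicle fusion. Dgkh encodes diacylglycerol kinase eta, which turns diacylglycerol into phosphatidic acid and so ends a lipid signal. Iqgap2 encodes a scaffold for Rac1 and Cdc42, Jph1 a junctophilin that holds the endoplasmic reticulum close to the cell membrane, and Arhgap20 a Rap1-activated protein that switches off RhoA.

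The promoter windows of 5 of the genes are shown to set side by side the sequence before the starts of genes picked for a like pattern, and those of Mkx, Ccbe1 and Jph1 are not shown here. Each is the 250 bases before a start site in RefSeq, build GRCm38.p6, printed 5′ to 3′ on the strand of the gene. Capitals mark matches on either strand to TGACG, the core of the cAMP response element, to GGGCGG, the GC box, and to TATAAA, the TATA box, with overlapping matches counted each. Of the 3 Dgkh starts in the table, the one with the highest share of G and C is shown.
Rtl3, chrX:106840540-106840789, minus strand: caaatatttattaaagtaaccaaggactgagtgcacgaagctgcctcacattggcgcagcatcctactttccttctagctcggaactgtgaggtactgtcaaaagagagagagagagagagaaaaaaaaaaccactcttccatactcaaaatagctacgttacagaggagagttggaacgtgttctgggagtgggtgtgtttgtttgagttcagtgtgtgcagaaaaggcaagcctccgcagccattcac
Syt10, chr15:89841861-89842110, minus strand: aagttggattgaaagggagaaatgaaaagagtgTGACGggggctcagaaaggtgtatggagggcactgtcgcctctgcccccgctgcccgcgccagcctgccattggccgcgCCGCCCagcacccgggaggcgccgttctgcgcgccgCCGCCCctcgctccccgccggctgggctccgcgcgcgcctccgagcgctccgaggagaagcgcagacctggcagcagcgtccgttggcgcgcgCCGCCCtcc
Dgkh, chr14:78732730-78732979, minus strand: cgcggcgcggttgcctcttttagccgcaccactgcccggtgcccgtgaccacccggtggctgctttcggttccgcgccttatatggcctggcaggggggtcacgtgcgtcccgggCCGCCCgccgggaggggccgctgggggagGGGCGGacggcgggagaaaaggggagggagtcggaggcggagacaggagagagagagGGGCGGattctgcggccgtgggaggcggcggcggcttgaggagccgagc
Iqgap2, chr13:95891923-95892172, minus strand: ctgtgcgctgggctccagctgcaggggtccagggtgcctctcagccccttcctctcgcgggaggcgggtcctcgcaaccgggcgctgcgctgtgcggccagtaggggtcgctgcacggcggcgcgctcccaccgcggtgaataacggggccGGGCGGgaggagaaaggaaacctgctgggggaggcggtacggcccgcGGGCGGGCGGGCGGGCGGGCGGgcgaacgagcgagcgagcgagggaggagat
Arhgap20, chr9:51765101-51765350, plus strand: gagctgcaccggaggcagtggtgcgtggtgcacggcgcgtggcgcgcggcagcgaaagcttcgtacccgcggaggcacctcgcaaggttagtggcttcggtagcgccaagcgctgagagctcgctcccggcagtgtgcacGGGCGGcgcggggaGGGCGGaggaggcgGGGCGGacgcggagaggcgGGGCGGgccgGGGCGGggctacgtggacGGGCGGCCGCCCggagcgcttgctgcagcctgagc
Among the windows shown, that of Rtl3 was GC-poor and the other 4 were GC-rich. G and C made up 72.0% of the Syt10 window, 73.6% of this Dgkh window, 75.2% of the Iqgap2 window and 76.0% of the Arhgap20 window, against a median of 52.4% over the 32841 windows of the table. GGGCGG was present 3 times in Syt10, 3 times in Dgkh, 6 times in Iqgap2 and 7 times in Arhgap20, and 32.7% of all windows held it at least once. The Rtl3 window, at 45.2% G and C, held no match to any of the motifs. TGACG was found once in Syt10, and 17.8% of all windows held it. No TATAAA was found in these windows, while 12.4% of all windows held it. The other Dgkh windows were GC-poor, at 40.4% with 1 TGACG and at 45.6% with no match. Which start the array probes read is not known, and a match is a string of letters and no proof of a bound factor.

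The 8 genes differed in how far they fitted the description of an opposite response. In APP-PS1 mice all 8 had a lower mean on ibuprofen than on control chow. In wild-type mice 7 of 8 had a higher mean on ibuprofen, and Arhgap20 had a lower one. The direction alone says little, since the point estimates of 9872 genes, or 49.5% of all genes, were lower on ibuprofen in APP-PS1 and higher in wild-type mice. Across all genes no gene passed an adjusted p of 0.05 by limma for the interaction (0% called, with 4087 genes at an unadjusted p under 0.05), for ibuprofen in APP-PS1 mice (0%, 1292 genes) or for ibuprofen in wild-type mice (0%, 2198 genes).

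**Figure D1:**
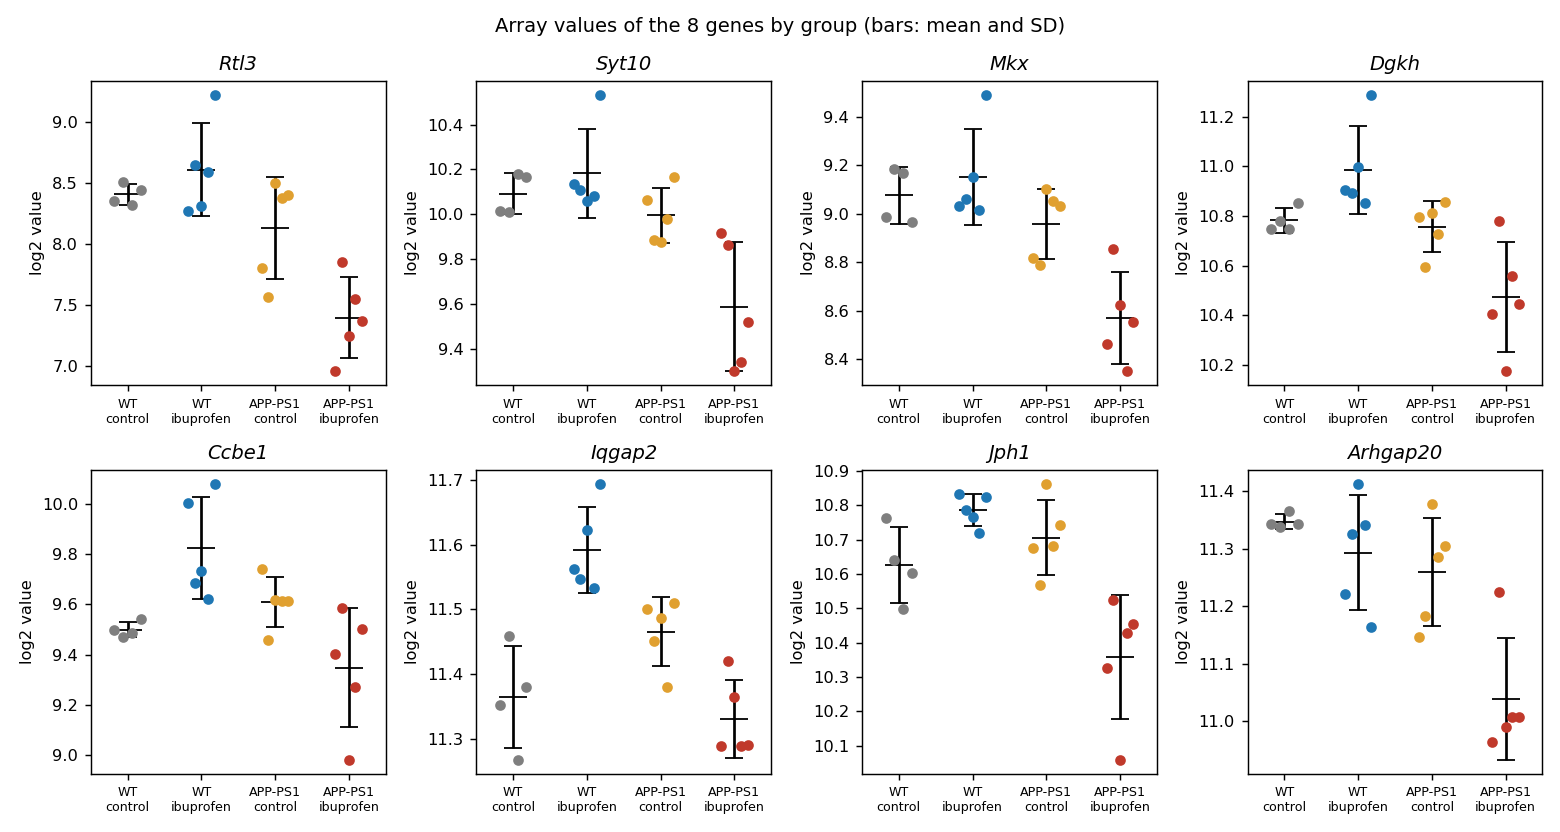
Log2 array values (vertical axis) of the 8 genes in the 4 groups (horizontal axis, WT is wild-type), 1 point per array, with black bars for the mean and SD. In 7 of the 8 panels, all but Arhgap20, the APP-PS1 ibuprofen arrays lie below every wild-type ibuprofen array.

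Rtl3 showed the widest swing. On wild-type control chow its log2 values were 8.35, 8.51, 8.32 and 8.44, and on wild-type ibuprofen chow 8.27, 8.64, 8.31, 8.59 and 9.22. The APP-PS1 control arrays read 7.81, 7.57, 8.50, 8.38 and 8.40, and the APP-PS1 ibuprofen arrays 6.96, 7.85, 7.25, 7.55 and 7.37. The 2 wild-type groups overlapped, with replicate 5 on ibuprofen standing above the rest, and among APP-PS1 control arrays replicates 1 and 2 were well below the other 3. The ibuprofen difference was -0.73 ± 0.19 (log2, SE) in APP-PS1 mice and 0.20 ± 0.20 in wild-type mice, the second about the size of its error. Without replicate 5 the wild-type difference was 0.05.

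Syt10 and Mkx had the same shape at smaller scale. Syt10 averaged 10.09 ± 0.09 (SD, n = 4) and 10.18 ± 0.20 (n = 5) in wild-type mice on control and ibuprofen chow, and 10.00 ± 0.12 and 9.59 ± 0.29 (n = 5 each) in APP-PS1 mice. Among the APP-PS1 ibuprofen arrays of Syt10, replicates 1 and 2 at 9.92 and 9.86 lay beside the control arrays, and the other 3, at 9.30, 9.34 and 9.52, lay apart. Mkx averaged 9.08 ± 0.12 and 9.15 ± 0.20 in wild-type mice, and 8.96 ± 0.14 and 8.57 ± 0.19 in APP-PS1 mice. The ibuprofen difference in APP-PS1 mice was -0.41 ± 0.11 for Syt10 and -0.39 ± 0.10 for Mkx. In wild-type mice it was 0.09 ± 0.12 for Syt10 and 0.07 ± 0.11 for Mkx, within the error. Only 3 of the 5 wild-type ibuprofen arrays for Syt10, and 2 of 5 for Mkx, were above the wild-type control mean. Without wild-type ibuprofen replicate 5, the highest array of both genes, the wild-type difference of Mkx was -0.01 and that of Syt10 was 0.00.

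Dgkh read 10.75, 10.78, 10.75 and 10.85 on wild-type control chow and 10.90, 10.89, 11.00, 10.85 and 11.29 on wild-type ibuprofen chow. In APP-PS1 mice it read 10.80, 10.59, 10.81, 10.73 and 10.85 on control chow and 10.41, 10.78, 10.18, 10.56 and 10.44 on ibuprofen. All 5 wild-type ibuprofen arrays were above the control mean, but replicate 4 reached no further than the highest control array. In APP-PS1 mice, 4 of 5 ibuprofen arrays were below all control arrays and replicate 2 was not. The differences were -0.28 ± 0.09 in APP-PS1 and 0.20 ± 0.10 in wild-type mice.

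Ccbe1, Iqgap2 and Jph1 were the genes in which every array on ibuprofen lay on the described side of the control mean, down in APP-PS1 and up in wild-type mice. Ccbe1 read 9.50, 9.47, 9.49 and 9.54 in wild-type mice on control chow and 10.00, 9.68, 9.73, 9.62 and 10.08 on ibuprofen. Its APP-PS1 control arrays read 9.74, 9.46, 9.62, 9.62 and 9.61, and its APP-PS1 ibuprofen arrays 9.40, 9.58, 8.98, 9.27 and 9.50. Thus the wild-type groups of Ccbe1 did not overlap, and the APP-PS1 groups did. Its difference was 0.33 ± 0.11 in wild-type and -0.26 ± 0.10 in APP-PS1 mice. Without the 3 arrays of lowest correlation, 2 of them wild-type ibuprofen arrays and the highest for Ccbe1, the wild-type difference was 0.18.

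Iqgap2 read 11.35, 11.46, 11.27 and 11.38 in wild-type mice on control chow and 11.56, 11.55, 11.62, 11.53 and 11.69 on ibuprofen. In APP-PS1 mice it read 11.50, 11.45, 11.49, 11.38 and 11.51 on control chow and 11.29, 11.42, 11.36, 11.29 and 11.29 on ibuprofen. The wild-type groups did not overlap, and 4 of 5 APP-PS1 ibuprofen arrays were below all APP-PS1 control arrays. The differences, 0.23 ± 0.05 in wild-type and -0.14 ± 0.05 in APP-PS1 mice, were small in size but the arrays of a group differed little (SD 0.05 to 0.08). On control chow Iqgap2 stood higher in APP-PS1 than in wild-type mice by 0.10 ± 0.05, so ibuprofen-fed APP-PS1 mice, at 11.33, had a mean near that of untreated wild-type mice, at 11.36.

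Jph1 read 10.76, 10.64, 10.50 and 10.60 in wild-type mice on control chow and 10.83, 10.79, 10.77, 10.72 and 10.82 on ibuprofen. In APP-PS1 mice it read 10.67, 10.57, 10.86, 10.68 and 10.74 on control chow and 10.33, 10.52, 10.06, 10.43 and 10.45 on ibuprofen. Here the APP-PS1 groups did not overlap, and 4 of 5 wild-type ibuprofen arrays were above all wild-type control arrays. The differences were -0.35 ± 0.07 and 0.16 ± 0.08. The second Jph1 probe set gave -0.31 ± 0.06 in APP-PS1 but 0.06 ± 0.07 in wild-type mice, so both probe sets read lower in APP-PS1 mice and the wild-type difference was within its error in the second.

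Arhgap20 went against the description. Its wild-type control arrays read 11.34, 11.34, 11.37 and 11.34, and the wild-type ibuprofen arrays read 11.22, 11.33, 11.41, 11.34 and 11.16. In APP-PS1 mice it read 11.15, 11.18, 11.38, 11.29 and 11.31 on control chow and 10.96, 11.23, 10.99, 11.01 and 11.01 on ibuprofen. Ibuprofen arrays averaged lower in both genotypes, by -0.22 ± 0.06 in APP-PS1 and -0.05 ± 0.06 in wild-type mice, the second within its error. Only 1 of 5 wild-type ibuprofen arrays was above the control mean.

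**Figure D2:**
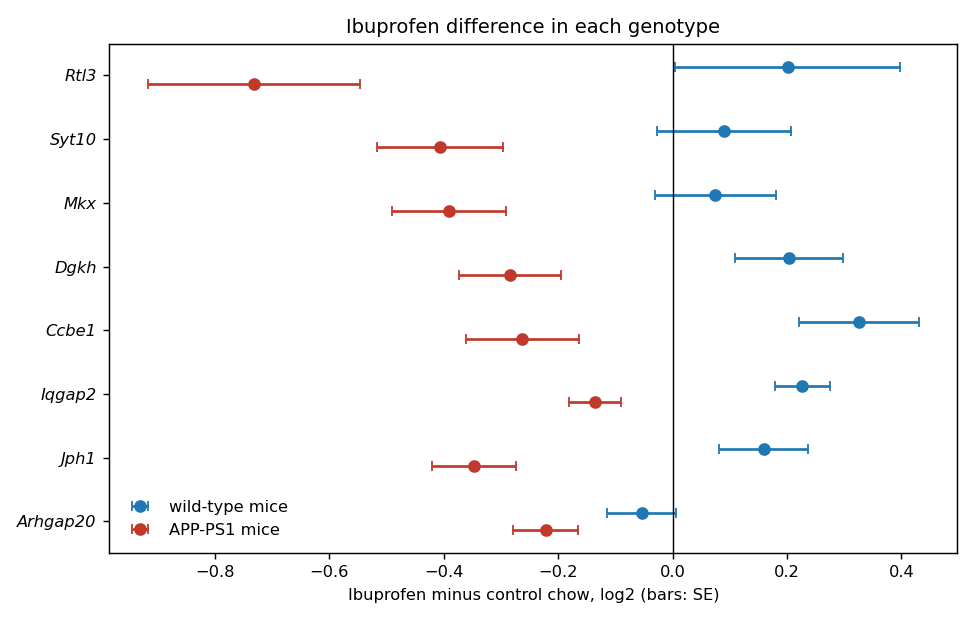
Log2 difference between ibuprofen and control chow (horizontal axis, bars are SE from limma) for each gene in wild-type and APP-PS1 mice. All 8 APP-PS1 values are below 0, from -0.14 for Iqgap2 to -0.73 for Rtl3, and the wild-type value is above 0 in 7 and below 0 in Arhgap20.

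Counted by overlap of whole groups, 2 of 8 genes, Ccbe1 and Iqgap2, had all wild-type ibuprofen arrays above all wild-type control arrays (1.94% of all genes). Jph1 was the 1 gene of 8 with all APP-PS1 ibuprofen arrays below all APP-PS1 control arrays (2.27% of all genes). No gene of the 8 met both. Where the groups did separate was between the genotypes on ibuprofen: 7 of 8, all but Arhgap20, had all APP-PS1 arrays below all wild-type arrays (2.06% of all genes), and 7 of 8 passed the adjusted p of 0.05 for being lower there (0.251% of all genes called lower, 50 genes). The 7 became 3 to 8 when 1 array was left out (3 without APP-PS1 ibuprofen replicate 4) and 4 without the 3 arrays of lowest correlation. With the granule cell or the CA1 marker mean of each array as a covariate, described further on, 0 of the 8 were called. These shares describe the choice of the genes and support nothing further, since the difference between genotypes on ibuprofen is made of the same arrays. It ranged from -0.26 for Iqgap2 and Arhgap20 to -1.21 for Rtl3. On control chow the genotypes differed by -0.28 for Rtl3 and by between -0.12 and 0.11 for the other 7.

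The comparison least bound to the choice of the genes is that of APP-PS1 with wild-type mice averaged over both diets. Its estimate is uncorrelated with that of ibuprofen in APP-PS1 mice (0) and nearly so with the interaction (-0.0588) and with ibuprofen in wild-type mice (0.0808), but it shares arrays with the difference on ibuprofen chow (0.686). All 8 genes averaged lower in APP-PS1 mice, a count that leans on the arrays on ibuprofen chow. On control chow alone 5 were lower and 3 higher, Ccbe1 by 0.11, Iqgap2 by 0.10 and Jph1 by 0.08. None of the 8 passed the adjusted p of 0.05 by limma, which 0.0251% of all genes (5 genes) did and 0.00502% did as lower. An unadjusted p under 0.05 by limma was reached by 1535 genes. Of the 8, Rtl3 came nearest to passing, at -0.74 ± 0.14 (adjusted p = 0.0563 by limma, between 0.0114 and 0.143 when 1 array was left out). Mkx followed at -0.35 ± 0.07 (adjusted p = 0.129 by limma) and Syt10 at -0.35 ± 0.08 (0.211). The remaining 5 lay between -0.27 for Dgkh and -0.08 for Iqgap2, with adjusted p from 0.232 to 0.597. The median over all genes was -0.01, with 10950 of 19938 below 0. Choroid plexus markers moved with the same comparison: 12 of 12 averaged higher in APP-PS1 mice (median 0.60, 0 called), with a list mean of 8.26 (7.73 to 9.32 over arrays) and 8.38 (7.74 to 10.15) in wild-type and 8.83 (7.90 to 10.29) and 9.02 (8.03 to 10.02) in APP-PS1 mice on control and ibuprofen chow. With that list mean as a covariate, Rtl3 was -0.80 and passed (adjusted p = 0.0364 by limma), and the other 7 did not pass. Without APP-PS1 ibuprofen replicate 2, 5 of the 8 genes passed, while 52 genes passed in all. With the granule cell marker mean as a covariate, described further on, 0 of the 8 passed. Their differences then lay between -0.34 for Rtl3 and -0.01 for Ccbe1.

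Hippocampal tissue holds many cell types, and a lower level in a bulk sample can be fewer cells of a type or less RNA per cell, which cannot be told apart here. The lists of marker genes were therefore set beside the 8 genes. The dentate granule cell list had 14 of 15 genes measured. The mean of the list was 10.02 (9.93 to 10.09 over arrays) in wild-type mice on control chow and 10.14 (10.05 to 10.35) on ibuprofen. In APP-PS1 mice it was 10.01 (9.86 to 10.15) on control chow and 9.73 (9.47 to 10.03) on ibuprofen. The 4 group means of the list stood in the same order as those of Rtl3, Syt10, Mkx and Dgkh, and in another order than those of Ccbe1, Iqgap2, Jph1 and Arhgap20. Apart from Arhgap20, this split rests on the 2 control groups, whose list means were close. Between them (APP-PS1 minus wild-type) Rtl3 differed by -0.28 ± 0.20, Dgkh by -0.03 ± 0.10, Iqgap2 by 0.10 ± 0.05 and Ccbe1 by 0.11 ± 0.11. The order was not tested, and it comes from the group means that chose the genes.

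Marker by marker, 11 of 14 granule cell genes had a higher mean on ibuprofen in wild-type mice (median 0.15, all genes 0.05) and 11 of 14 a lower one in APP-PS1 mice (median -0.13, all genes -0.02). Of all 19938 genes, 13325 were higher on ibuprofen in wild-type mice and 11610 lower in APP-PS1 mice. All 14 had an interaction below 0 (median -0.22, all genes -0.07), and 4 of 14, Prox1, Dsp, Tdo2 and Lct, were called lower in APP-PS1 mice on ibuprofen chow. Dsp, which encodes the junction protein desmoplakin, differed there by -1.29 ± 0.19 (adjusted p = 0.00545 by limma) and Prox1 by -0.46 ± 0.08 (adjusted p = 0.0128 by limma). C1ql2, a secreted granule cell protein of mossy fibre synapses, did not follow, at 0.08 ± 0.09. The list was made with earlier results of these data known, and Tdo2 and Dsp in it were among those results. The interaction was also below 0 in 5 of 5 CA1 genes (median -0.20), 5 of 6 CA3 genes (-0.21) and 9 of 9 oligodendrocyte genes (-0.18), with no gene called for it in any list. It was below 0 in 12843 of all 19938 genes, so part of such counts is shared by the whole array.

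To compare the genes with the lists apart from the groups, the mean of its group was taken from each value, and the deviations were correlated over the 19 arrays. This removes the group means by which the genes were chosen. An array that stands apart, such as wild-type ibuprofen replicate 5, still enters both its group mean and its own deviation. All 8 genes correlated above 0 with the granule cell mean, as did 12433 of all 19938 genes, with a median r of 0.69 against 0.11 over all genes. Dgkh followed it most closely, with Pearson r = 0.89 and Spearman rho = 0.82 (permutation p = 0.00023 and 8e-05, adjusted p = 0.0166 and 0.00792 over 144 relations), and was the gene with rank 4 of 19938. Rtl3 came next at r = 0.79 and rho = 0.84 (permutation p = 0.00094 and 0.00038, adjusted 0.0259 and 0.0182). Jph1 reached r = 0.77 and rho = 0.72 (permutation p = 0.0017 and 0.00224, adjusted 0.035 and 0.0645). Without the 2 arrays farthest from the median, r was 0.79 for Dgkh, 0.87 for Rtl3 and 0.58 for Jph1. For the other 5 genes r lay between 0.46 for Arhgap20 and 0.69 for Ccbe1, and none passed.

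Not all of the genes followed granule cells best. Ccbe1 followed the CA3 pyramidal cell list, with r = 0.90 and rho = 0.86 (permutation p = 8e-05 and 0.00011, adjusted p = 0.0115 and 0.00792) and 0.93 without the 2 farthest arrays. It also followed the CA2 list at r = 0.74 (rho = 0.75, permutation p = 0.00103 and 0.00203, adjusted 0.0259 and 0.0645; 0.68 without 2 arrays). Iqgap2 was nearest to the CA1 list, at r = 0.73 and rho = 0.64 (permutation p = 0.00076 and 0.00594, adjusted 0.0259 and 0.105; 0.56 without 2 arrays). Mkx was nearest to the thalamus and habenula list, at r = 0.80 and rho = 0.66 (permutation p = 0.00108 and 0.00478, adjusted 0.0259 and 0.0983; 0.71 without 2 arrays), a list whose group means lay between 8.73 and 8.84. In all, 7 of 144 relations passed by Pearson and 3 by Spearman. Whether r differed between lists was not tested, and the lists themselves vary together.

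**Figure D3:**
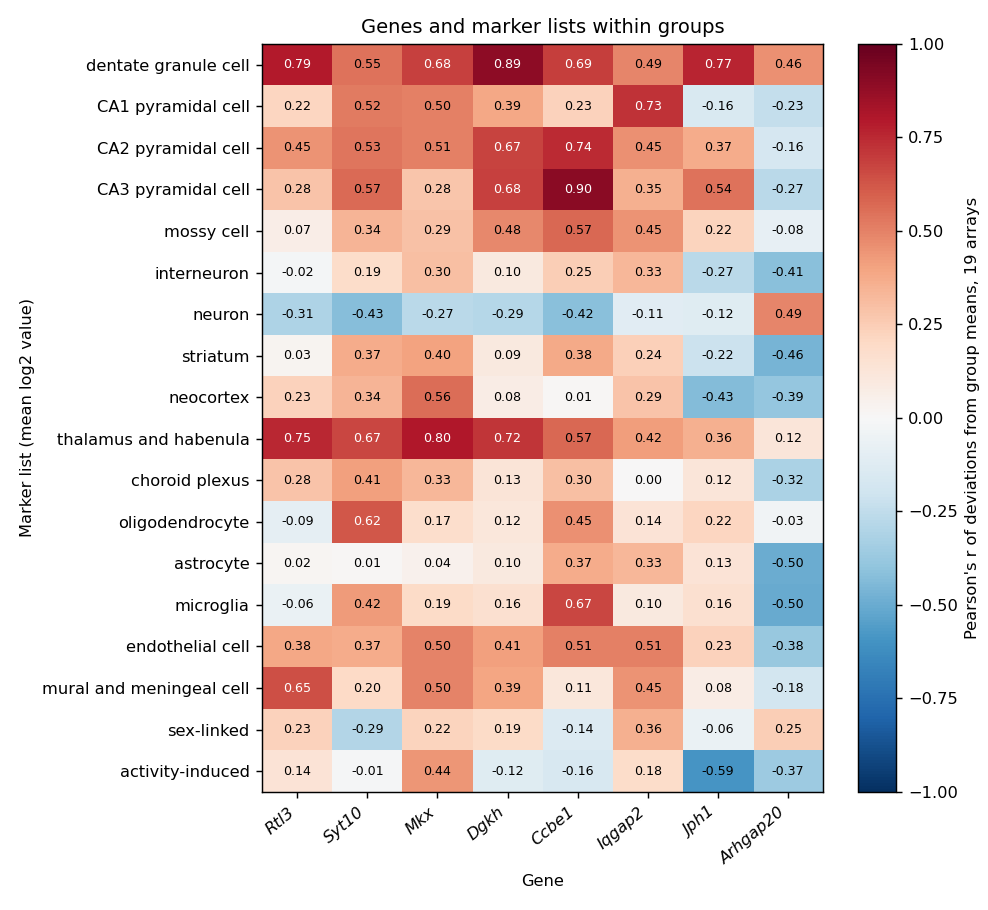
Pearson's r (color scale and printed values) between each gene (columns) and the mean of each of 18 marker lists (rows), over 19 arrays after removal of group means. The granule cell row is above 0 for all 8 genes, and the highest value of all is that of Ccbe1 with CA3.

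**Figure D4:**
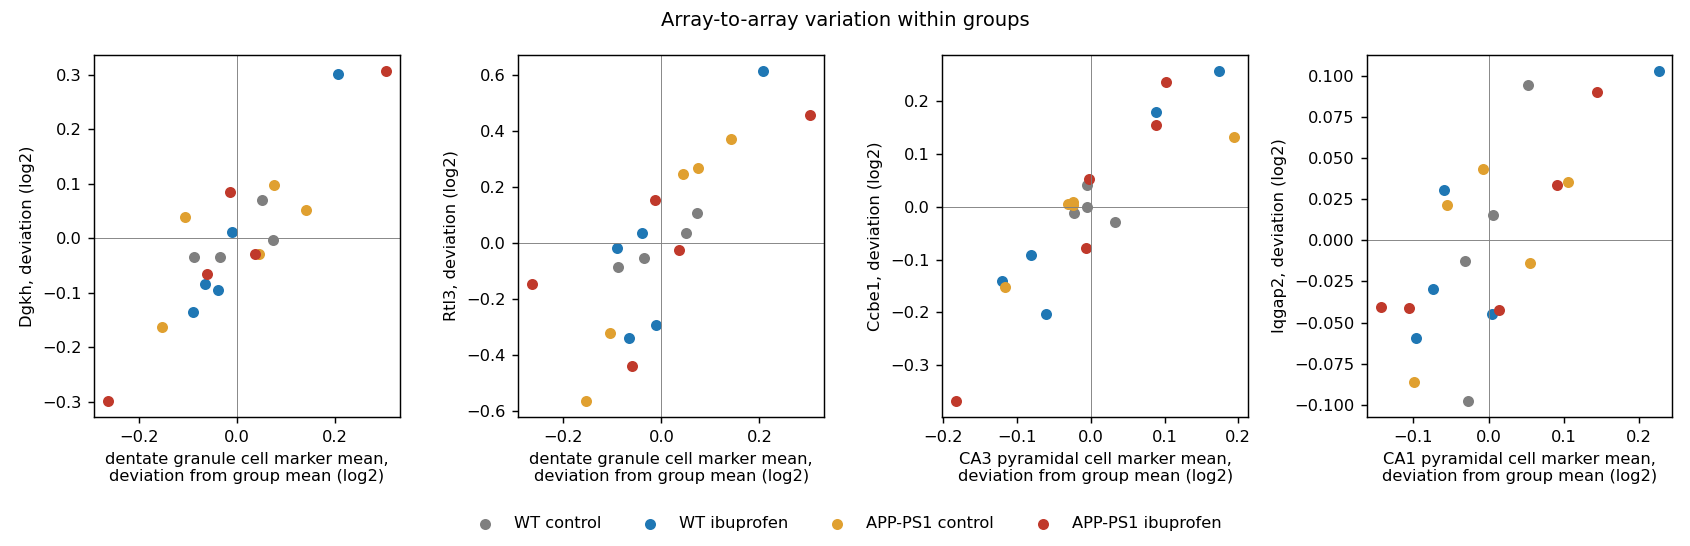
Deviation from the group mean (log2) of Dgkh and Rtl3 against the granule cell marker mean, of Ccbe1 against the CA3 marker mean and of Iqgap2 against the CA1 marker mean, 1 point per array, colored by group. The relations have r of 0.89, 0.79, 0.90 and 0.73 in that order.

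The 8 genes also varied together. Of the 28 pairs, 26 correlated above 0 within groups, with a median r of 0.38, against 0.10 for these genes with all genes. After adjustment over the pairs, 6 passed by Pearson and none of 28 by Spearman. The closest pair was Dgkh with Ccbe1, at r = 0.76 and rho = 0.57 (permutation p = 0.00487 and 0.0342, adjusted 0.0291 and 0.12, and r = 0.62 without 2 arrays). Rtl3 with Mkx reached r = 0.73 and rho = 0.63 (permutation p = 0.00393 and 0.0154, adjusted 0.0291 and 0.107, and r = 0.59 without 2 arrays). On all 19 arrays Arhgap20 was the gene that joined least, with r from -0.08 with Ccbe1 to 0.37 with Rtl3. Without 2 arrays its r was 0.66 with Rtl3, 0.53 with Mkx and -0.02 with Ccbe1. With Jph1 it fell from 0.36 to 0.16. How much single arrays carried differed between pairs. Without APP-PS1 ibuprofen replicate 2 and wild-type ibuprofen replicate 5, r of Dgkh with Mkx went from 0.57 to 0.07. That of Dgkh with Jph1 went from 0.67 to 0.70. APP-PS1 ibuprofen replicate 2 was the highest of its group for 7 of 8 genes and had the highest granule cell mean of its group, 10.03. Wild-type ibuprofen replicate 5 was the highest for 6 of 8, with a granule cell mean of 10.35.

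With the granule cell mean of each array as a covariate, the interaction was smaller in all 8 genes. It went from -0.93 ± 0.27 to -0.16 ± 0.23 in Rtl3, from -0.49 ± 0.13 to -0.09 ± 0.10 in Dgkh, from -0.59 ± 0.14 to -0.25 ± 0.15 in Ccbe1 and from -0.51 ± 0.11 to -0.24 ± 0.10 in Jph1. Iqgap2 kept the most, going from -0.36 ± 0.07 to -0.27 ± 0.08, and Arhgap20 the least remaining size, from -0.17 to -0.05. With the CA3 mean in its place, Ccbe1 stood at -0.29 ± 0.09 and Rtl3 at -0.75 ± 0.30. With the CA1 mean, Iqgap2 stood at -0.28 ± 0.06 and Jph1 at -0.54 ± 0.12. Under the granule cell covariate the wild-type ibuprofen difference of Rtl3 was -0.04 and that of Mkx -0.03. The CA3 and CA1 covariates were chosen after the data had been seen. The granule cell list was also made with earlier results of these data known, Tdo2 and Dsp among them. A smaller interaction under that covariate is therefore a description and no test. The granule cell mean itself differed between the groups, and its part in the result was not tested.

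**Figure D5:**
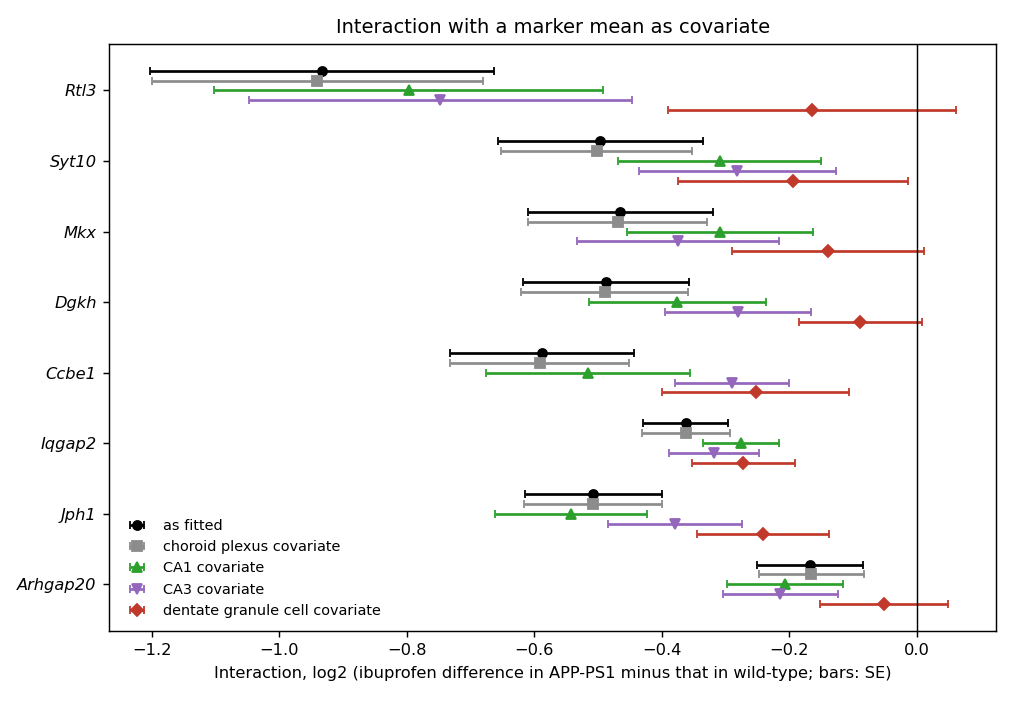
Interaction of each gene (horizontal axis, log2, bars are SE) as fitted and with the choroid plexus, CA1, CA3 or dentate granule cell marker mean of each array as a covariate. The granule cell covariate gives the value nearest 0 in all 8 genes, and the choroid plexus covariate leaves the values where they were. The granule cell list was made with earlier results of these data known.

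Nearest genes were sought among genes with a standard name, with names such as Gm, Rik and accession names left out. Over all arrays, the genes most like the 8 in pattern were in part granule cell markers. Rtl3 was most like Dsp (r = 0.95), then Fat4 and Adcy1, and Mkx most like Adcy1, Ptchd4 and Dsp (0.95 each). Dgkh was most like Ralgapa2 (0.97), Rfx3 and Lct, Jph1 most like Tmem144 (0.93), Frzb and Lct, and Arhgap20 most like Tdo2 (0.92), Calb1 and Adcy1. Ccbe1 was nearest to Tmem114 (0.96), Hspa2 and Rbm48, Iqgap2 to Arhgap39 (0.93), Pde7a and Nedd4l, and Syt10 to Tub (0.91), Slc27a2 and Camkk2. These likenesses over 19 arrays include the group differences that chose the 8 genes. By deviations from group means, granule cell markers were among the 3 nearest genes only for Rtl3 and Arhgap20. They were Npnt and Dsp (0.86 each) for Rtl3 and Tdo2 (0.78) for Arhgap20. The nearest gene was then Kif26b for Dgkh (0.95), Tiam1 for Mkx (0.90) and Frzb for Jph1 (0.87).

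The relatives of the 8 genes, from family lists, did not pass for genotype, for ibuprofen in either genotype or for the interaction (0 called in each list by limma). The interaction was below 0 in 12843 of all 19938 genes, and the family counts are to be read beside that share. Among the Rtl and Peg10 family, 8 of 11 were measured and their interactions were split, 4 above and 4 below 0, from 0.38 ± 0.13 for Rtl1 to -0.44 ± 0.13 for Rtl4. Of the synaptotagmins, 10 of 16 were below 0 (median -0.07, the same as over all genes), and Syt3, the near relative of Syt10, stood at -0.15 ± 0.10. Of the diacylglycerol kinases, 6 of 7 were below 0 (median -0.21), with Dgkd, the close relative of Dgkh, at -0.27 ± 0.12. Of the Vegfc pathway, 8 of 10 were below 0 (median -0.13), while the partners of Ccbe1 moved little: Vegfc, the growth factor, stood at -0.12 ± 0.12, Adamts3, the protease, at -0.10 ± 0.11, and the receptor gene Flt4 at 0.00 ± 0.11. Prox1, also a member of that list, was its only gene called lower in APP-PS1 mice on ibuprofen chow.

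Iqgap1, a widely expressed relative of Iqgap2, had an interaction of -0.20 ± 0.21 and Iqgap3 of 0.08 ± 0.13. Among the junctophilins, Jph2 stood at 0.37 ± 0.14, opposite in sign to Jph1, and the neuronal Jph3 and Jph4 at -0.15 ± 0.11 and -0.15 ± 0.12. The ryanodine receptors, calcium release channels that junctophilins bring close to the membrane, were below 0 as well, with Ryr3 at -0.32 ± 0.12 and Ryr2 at -0.22 ± 0.08. Of the homeobox relatives of Mkx, 7 of 16 were below 0 (median 0.02), and of the ARHGAP list with RhoA and Rap1, 21 of 35 (median -0.05). Rhoa, the target of Arhgap20, stood at 0.07 ± 0.09 while the Rap1 genes, which encode its activator, stood on either side of 0, Rap1a at 0.12 ± 0.16 and Rap1b at -0.17 ± 0.08. None of these values is a call, and no family was tested as a set.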

How the data were processed

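Hippocampal RNA of mice in 4 groups was labelled and hybridised to 19 Affymetrix whole-transcript arrays. The values deposited by the authors are log2 intensities, made with RMA in Partek 6.5 per the submitters' processing notes, with 1 array per sample; the background correction within RMA and any batch step are not given in the sources used here. Array values were used as deposited. Of 35556 probe sets, 21789 carry 1 symbol in the platform annotation of 2016, 1621 several and 12146 none; each gene was read from its brightest 1-symbol probe set, which gave 19938 genes. All groups were fitted at once with limma 3.58.1 (R 4.3.3, intensity trend, 15 residual degrees of freedom), and p-values were adjusted by Benjamini-Hochberg over all genes. The fit was tested on simulated data. The number of arrays limits the precision. Correlations used deviations from group means, 100000 permutations within groups, and adjustment over the 28 pairs or 144 gene and list relations. The named genes were the 8 genes, their 3 nearest genes with a standard name, and fixed relatives and markers. The members, marker lists and families were chosen with earlier results of these data known. Arrays carry no batch label. Alternatives are given in the closing section. Promoters came from RefSeq.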

Additional observations from a re-analysis of the deposited data

Results flagged for a closer look

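In wild-type mice on ibuprofen, replicate 5 stood apart from the other 4 arrays of its group as the highest for Syt10, at 10.53, and for Mkx, at 9.49. In APP-PS1 mice on ibuprofen, replicate 2 stood apart as the highest for Arhgap20, at 11.23. These 3 came from 32 groups of arrays looked at, of which chance alone sets apart about 1 in 20. For Ccbe1, Iqgap2 and Jph1, every APP-PS1 array on ibuprofen was below the control mean and every wild-type array on ibuprofen above it, with interactions of -0.59, -0.36 and -0.51, and this difference was not tested because it chose the genes.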

How the results depend on the processing

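Direction held for the interaction, for genotype averaged over both diets, for genotype on ibuprofen chow and for ibuprofen in APP-PS1 mice in all 8 genes under every alternative run. Size did not always hold. With the granule cell covariate, ibuprofen in APP-PS1 mice went from -0.28 to -0.01 for Dgkh and from -0.26 to -0.03 for Ccbe1. Genotype averaged over both diets went from -0.18 to -0.01 for Ccbe1. The wild-type ibuprofen difference changed sign under at least 1 alternative for Rtl3, Syt10, Mkx and Arhgap20, and for none of the other 4. Genes called for genotype averaged over both diets numbered 5 as fitted, 8 with quantile normalization, 342 with array weights, 50 with the CA3 covariate, 8 without the 3 arrays of lowest correlation and from 3 to 52 with 1 array left out (52 without APP-PS1 ibuprofen replicate 2). The interaction had 0 calls as fitted, 174 with array weights, 1 with the CA1 covariate and up to 13 with 1 array left out (0 to 13, most without APP-PS1 ibuprofen replicate 2). Ibuprofen in APP-PS1 mice had 0, 108 with array weights, 1 with the CA1 covariate and 0 to 3 with 1 array left out; ibuprofen in wild-type mice had 0, and 2 with array weights. Genotype on ibuprofen chow, added after the data were seen, had 54 calls, 128 with dim genes left out, 91 with the robust fit, 1004 with array weights, 2 with the granule cell covariate, 4 with the CA1 covariate, 175 with the Xist covariate, 33 without the 3 arrays and 10 to 1490 with 1 array left out (10 without APP-PS1 ibuprofen replicate 4, 1490 without wild-type ibuprofen replicate 4). Of the 8 genes, 0 were called there with either the granule cell or the CA1 covariate, 4 without the 3 arrays, 3 to 8 with 1 array left out, and 7 or 8 under the other alternatives. The cause of these changes was not tested.

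Same-numbered arrays correlated over 0.1 in 8 of 18 pairs (range -0.27 to 0.60). The labels do not say whether a number marks a shared litter or day, so whether the numbers pair the arrays is not known. With the replicate number as a block, genotype on ibuprofen chow had 197 calls and the value for Rtl3 genotype averaged over both diets was -0.78 (adjusted p = 0.0177 by limma). Rtl3 also passed with quantile normalization (adjusted p = 0.0458 by limma), dim genes left out (0.0467), array weights (0.00536), the choroid plexus covariate (0.0364), the CA3 covariate (0.0197) and without APP-PS1 control replicate 3, APP-PS1 ibuprofen replicate 2, wild-type ibuprofen replicate 1 or wild-type ibuprofen replicate 5 (0.0114 to 0.0496). With the block counted, these were 10 of 33 alternatives, and Rtl3 did not pass in the other 23. Its adjusted p was 1 with the granule cell covariate.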
